A study of Mus musculus with 2 samples.

Results

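The forkhead genes of the mouse were examined for peaks of N6-methyladenosine (m6A), a methyl group on internal adenosines of mRNA, in the pregnant uterus. The members were the protein-coding genes whose symbol is Fox, a letter from a to s and digits, without Foxo1, Foxa2 and Foxl2. The rule found 41 of the 21900 protein-coding genes in the RefSeq table (GRCm38.p6, which is mm10), spread over 19 subfamily letters. A peak was counted for a gene when its summit, the base with the strongest signal, lay between the first and the last base of the gene. Of the 41 genes, 14 had at least 1 peak and together held 40 peaks, and 27 had none.

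The samples came from wild-type females aged 6 to 8 weeks that were mated with fertile males and killed on day 4 of gestation, where the day of the vaginal plug was day 1. The labels give 1 sample of polyA RNA that was immunoprecipitated with an antibody against m6A (the IP) and 1 input sample, and both are described as mixed cells. The sources used here give neither the number of animals nor any pooling. The data are a single list of 26584 peaks deposited with the IP sample, without replicates, so no difference below has a replicate check or a p-value across samples.

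All 26584 peak names carry the run name D8NegIP-Posinput, which differs from the day in the sample labels, and which day and which input the peaks belong to could not be settled. Each peak has a fold enrichment, the number of IP fragments over the summit (the pileup) plus 1, divided by the background expected there plus 1. The pileup of all peaks had a median of 18 fragments and a range of 3 to 361. Marker genes of the uterus carried peaks, with all 6 of the uterine regulators (such as Pgr and Hand2), 6 of 6 stromal, 5 of 5 smooth muscle, 4 of 4 endothelial and 5 of 6 epithelial genes. Of markers of other cells, 0 of 4 ovarian, 0 of 3 embryonic and 0 of 5 ciliated-cell genes, 1 of 6 immune genes, 1 of 3 red blood cell genes, 1 of 2 fat genes and 3 of 3 liver genes had a peak. Of all protein-coding genes, 44.9% had a peak. This share lay inside the Wilson intervals of the ovarian (0 to 49%), embryonic (0 to 56.1%) and immune lists (3.01 to 56.4%). It also lay inside those of the red blood cell, fat, liver and epithelial lists. It lay above that of the ciliated-cell list (0 to 43.4%) and below those of the uterine regulators, stromal, smooth muscle and endothelial lists. Whether cells of a list without peaks were absent was not tested. The part of other cells in the values of the forkhead genes was not tested either.

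Forkhead proteins are transcription factors that share a winged-helix DNA-binding domain, the forkhead. FoxO proteins are kept out of the nucleus when insulin and growth factors act through PI3K and Akt, FoxP proteins are mostly repressors, and FoxC and FoxF proteins act in mesenchyme and vessels. The m6A mark is written on the mRNA by the METTL3-METTL14 complex, is known to be dense in long internal exons and around stop codons, and can change how long a transcript lasts.

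RefSeq promoter windows of the build GRCm38.p6, which run from 250 bases before a gene's start to 50 bases after it, matched 25 of the 41 members. They are the only genomic sequence used here, and 3 peaks of members reached into such a window. These 3 stretches are shown because they are the part of the peaks whose letters could be read, and they cover the peak flank and not the summit. Each is printed 5′ to 3′ on the strand of the gene. Capitals mark GGACT, its variant GGACA and its variant GGACC, 3 common spellings of the sequence that the m6A writer prefers. The motifs were searched on both strands, and matches to different motifs do not overlap each other.
Foxj2 (chr6:122819934-122820213, plus strand, 280 bases that end 30 bases into the gene): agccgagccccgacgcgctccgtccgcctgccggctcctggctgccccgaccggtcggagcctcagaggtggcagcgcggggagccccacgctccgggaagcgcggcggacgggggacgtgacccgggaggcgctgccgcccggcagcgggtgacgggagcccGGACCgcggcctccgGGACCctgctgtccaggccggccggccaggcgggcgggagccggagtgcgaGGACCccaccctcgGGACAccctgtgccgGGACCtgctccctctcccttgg
Foxo3 (chr10:42274760-42275059, minus strand, 300 bases inside the gene): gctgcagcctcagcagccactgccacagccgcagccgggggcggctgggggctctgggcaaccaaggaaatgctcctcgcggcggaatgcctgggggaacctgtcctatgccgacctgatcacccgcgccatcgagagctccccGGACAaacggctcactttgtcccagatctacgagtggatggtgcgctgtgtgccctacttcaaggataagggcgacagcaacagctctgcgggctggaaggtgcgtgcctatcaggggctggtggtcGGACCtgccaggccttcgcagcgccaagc
Foxp4 (chr17:47924587-47924616, minus strand, 30 bases): tcgcccctacGGACCGGACAgtgccaccag

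The Foxj2 window held GGACC 5 times and GGACA 1 time on the strand of the gene over its 300 bases, and GGACA 1 time on the other strand. The last of these GGACC matches lies beyond the stretch printed. GGACC at 87, 72 and 21 bases and GGACA at 7 bases before the annotated start of Foxj2 fall outside the gene. The GGACC matches 8 and 36 bases after that start fall inside it. Over all 32851 windows of 300 bases, 26.1% held GGACC and 28.2% held GGACA on the strand of the gene, and 45.5% and 47.9% on either strand. GGACC was present at least 5 times on the strand of the gene in 9 of the 32851 windows (0.0274%), a count made after the Foxj2 window had been seen. On the strand of the gene the match nearest to the Foxj2 summit was 214 bases away.

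The Foxo3 stretch comes from the window of Gm38485, a gene that starts inside Foxo3 on the same strand, and lies wholly within a Foxo3 peak. Besides 1 GGACA and 1 GGACC on the printed strand, it held 2 GGACA on the other. One of its 3 reading frames runs through all 300 bases without a stop codon. An open frame does not show that all 300 bases are coding or lie in the mRNA, since exon ends were not known here. As background, part of the stretch encodes part of the forkhead domain of FOXO3. On the printed strand the nearer match, GGACA, was 379 bases from the summit.

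The Foxp4 peak covered 37 bases of its window, in which GGACC and GGACA stand side by side on the strand of the gene, 172 and 167 bases from the summit. Over all windows, the same 37 positions held at least 1 of the 3 motifs on that strand in 11.5% of cases. GGACT was not in these 3 stretches on either strand, which says only that these letters are not there, and 26.1% of all windows of 300 bases held it on the strand of the gene.

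Among the 41 forkhead genes, 34.1% had a peak (14 genes, Wilson interval 21.6 to 49.5), against 44.9% of all protein-coding genes, which lies inside that interval. With 41 genes the share of the family could not be told from the background. Both pairs FoxC and FoxK had a peak in each gene, FoxP in 3 of 4 genes, FoxO in 2 of 3, FoxN in 2 of 4, FoxF in 1 of 2, FoxJ in 1 of 3, and the single gene Foxs1 had a peak. The other 11 subfamily letters had none. A gene without a peak may be little transcribed, present in few cells or unmethylated. In RNA of a whole tissue, fewer cells of a type and less RNA per cell cannot be told apart.

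Gene span, the distance between the ends of a gene with introns included, went with the presence of a peak. The 14 genes with a peak had a median span of 49872 bases and the 27 without one 3985 bases. Of forkhead genes under 5 kb, 4 of 20 had a peak (20%, 8.07 to 41.6), against 21.1% of all protein-coding genes of that class. From 5 to 20 kb it was 1 of 8 (12.5%, 2.24 to 47.1) against 42.9%, and from 20 to 50 kb 3 of 6 (50%, 18.8 to 81.2) against 51.1%. From 50 to 100 kb 3 of 4 had a peak (75%, 30.1 to 95.4) against 60.3%, and all 3 genes over 100 kb, Foxp1, Foxp2 and Foxn3, had one (43.9 to 100) against 70.8%. In each of these 5 classes the background lay inside the interval of the forkhead genes. With the class shares of all protein-coding genes, 15.3 of the 41 genes (37.2%) would have had a peak.

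**Figure D1:**
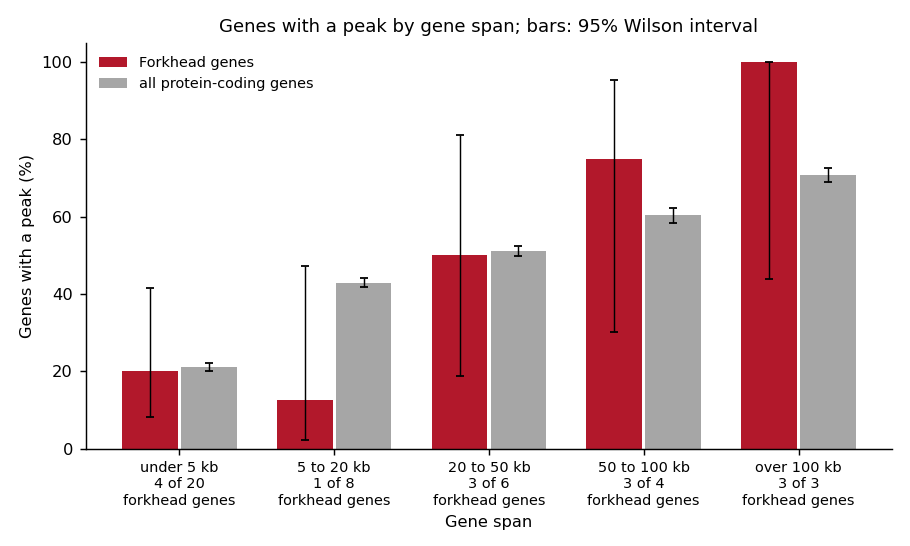
Share of genes with at least 1 peak (%, y axis) by gene span (x axis), for the 41 forkhead genes and for all 21900 protein-coding genes, with 95% Wilson intervals as bars. The forkhead share goes from 4 of 20 genes under 5 kb to 3 of 3 over 100 kb, and the share of all genes lies within its interval in every class.

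The strongest peaks of the 14 genes ranged in fold enrichment from 4.26 in Foxc2 to 21.6 in Foxo3, with a median of 11.4 (quartiles 7.76 and 15.9), against a median of 9.36 over the 9831 protein-coding genes with a peak. The binomial interval of the forkhead median, 5.11 to 19.0, holds that value. When each gene was given the median of its peaks in place of the strongest, the 2 medians were 7.51 and 7.43. At least 10-fold was reached by 10 of the 14 (71.4%) and by 45.0% of all protein-coding genes with a peak. These are values of the genes that passed the peak caller and say nothing of the 27 others. In order, Foxo3 was followed by Foxn3 (20.1), Foxn2 (19.0), Foxj2 (16.6), Foxo4 (13.5), Foxp1 (11.7), Foxk1 (11.5), Foxf1 (11.2), Foxk2 (11.0), Foxp4 (10.6), Foxc1 (6.81), Foxp2 (5.11), Foxs1 (4.44) and Foxc2 (4.26).

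Every pair of neighbours in this order had overlapping 95% Poisson intervals, so only distant ranks are separated by counting error. The interval of Foxo3 (17.3 to 26.8) lay above those of Foxp1 (7.67 to 17.2), Foxk1 (8.96 to 14.6), Foxf1 (7.14 to 16.9), Foxk2 (8.12 to 14.6), Foxp4 (7.18 to 15.2) and the 4 genes below them. The order also rests on the 1 added to pileup and background. Without it Foxc1 stood highest, at 40.0 from 7 fragments over a background of 0.175, and Foxk1 (13.7) and Foxs1 (10.4) lowest. A background of 0.175 is the lowest of all peaks, and the strongest peaks of Foxc2 and Foxp2 stand on it too.

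**Figure D2:**
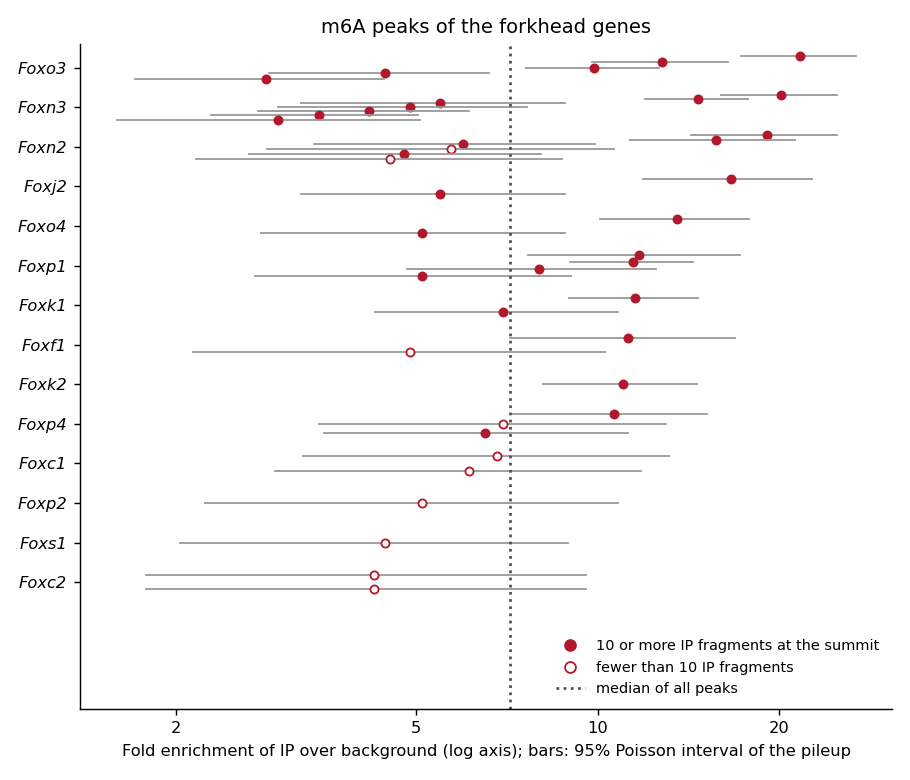
Fold enrichment (log x axis) of all 40 peaks of the 14 forkhead genes with a peak (y axis), each with its 95% Poisson interval, filled where at least 10 IP fragments lay at the summit. The genes are ordered by their strongest peak, from Foxo3 at 21.6 to Foxc2 at 4.26, and the dotted line is the median of all 26584 peaks, 7.14.

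Of the FoxO genes, Foxo3, which restrains growth and guards against stress downstream of insulin signalling, had 5 peaks over its span of 94851 bases on the minus strand of chromosome 10. The strongest, at 42185858 to 42186486, had 83 IP fragments over a background of 2.88, a fold enrichment of 21.6 (17.3 to 26.8), higher than 98.3% of all peaks. Its summit lay 4361 bases from the 3′ end of the span. A weaker pair stood closer to that end, with fold enrichments of 2.82 (1.71 to 4.42) and 4.43 (2.85 to 6.61) at 3542 and 1531 bases from it.

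A broad Foxo3 peak of 1572 bases, at 42196450 to 42198021, had 12.8 (9.79 to 16.4) from 59 fragments, 14786 bases from the 3′ end. The remaining peak, at 42274300 to 42275691, had 9.87 (7.60 to 12.6) from 62 fragments over a background of 5.38. It is 1392 bases wide and contains the Foxo3 stretch printed above, and its summit lay 1403 bases after the 5′ end. Foxo3 thus held peaks at both ends of the gene, and the intervals of the strongest peak and this one do not overlap.

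Foxo4, a short FoxO gene of 6613 bases on chromosome X, had a peak of 13.5 (10.1 to 17.8) at 101254441 to 101255457, with 49 fragments over 2.69, and a second of 5.12 from 11 fragments. The stronger summit lay 799 bases from the low-coordinate end. Foxo6, the third FoxO member and known from the brain, spans 20184 bases and had no peak.

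The FoxN genes Foxn3 and Foxn2, of which Foxn3 is a repressor tied to cell cycle checkpoints, had the most peaks of the family, 7 and 6. Foxn3 lies on the minus strand of chromosome 12 over 373587 bases. Its strongest peak, at 99388372 to 99389084, had 81 fragments over 3.08, a fold enrichment of 20.1 (16.0 to 24.9). This summit lay deep in the gene, 174916 bases from the 5′ end and 198670 from the 3′ end, and 61323 bases from the only start that the promoter table lists for Foxn3. Whether it lies in an exon or an intron could not be read from the gene table.

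A second strong Foxn3 peak, at 99196210 to 99196992, had 101 fragments, the highest pileup of the family, over a background of 5.96, which gave 14.7 (11.96 to 17.8). It lay 6501 bases from the 3′ end. Between it and that end stood 3 weaker peaks, with 4.17 (2.73 to 6.12), 3.45 (2.28 to 5.03) and 4.88 (2.95 to 7.64). Another pair lay within the gene, with 5.47 (3.21 to 8.81) and 2.94 (1.59 to 5.07). The last of these had a −log10 q of 1.78, the weakest of the 40 peaks, and its summit is shared with the long non-coding RNA gene 3300002A11Rik. The 2 strongest Foxn3 peaks have overlapping intervals.

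Foxn2 covers 49830 bases of chromosome 17. It had 2 strong peaks, 19.0 (14.3 to 24.9) from 51 fragments at 88486325 to 88487090, and 15.7 (11.3 to 21.2) from 40 fragments at 88462600 to 88463181. The former lay 3795 bases from the high-coordinate end and the latter 22165 bases from the low-coordinate end. The other 4 Foxn2 peaks were all below the median of all peaks, 7.14, with 5.97 (3.38 to 9.90) from 13 fragments, 5.71 (2.82 to 10.6) from 8, 4.76 (2.64 to 8.04) from 12 and 4.52 (2.16 to 8.72) from 7. Foxn1, needed for the thymic epithelium, and Foxn4, known from the retina, span 29207 and 20255 bases and had no peak.

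**Figure D3:**
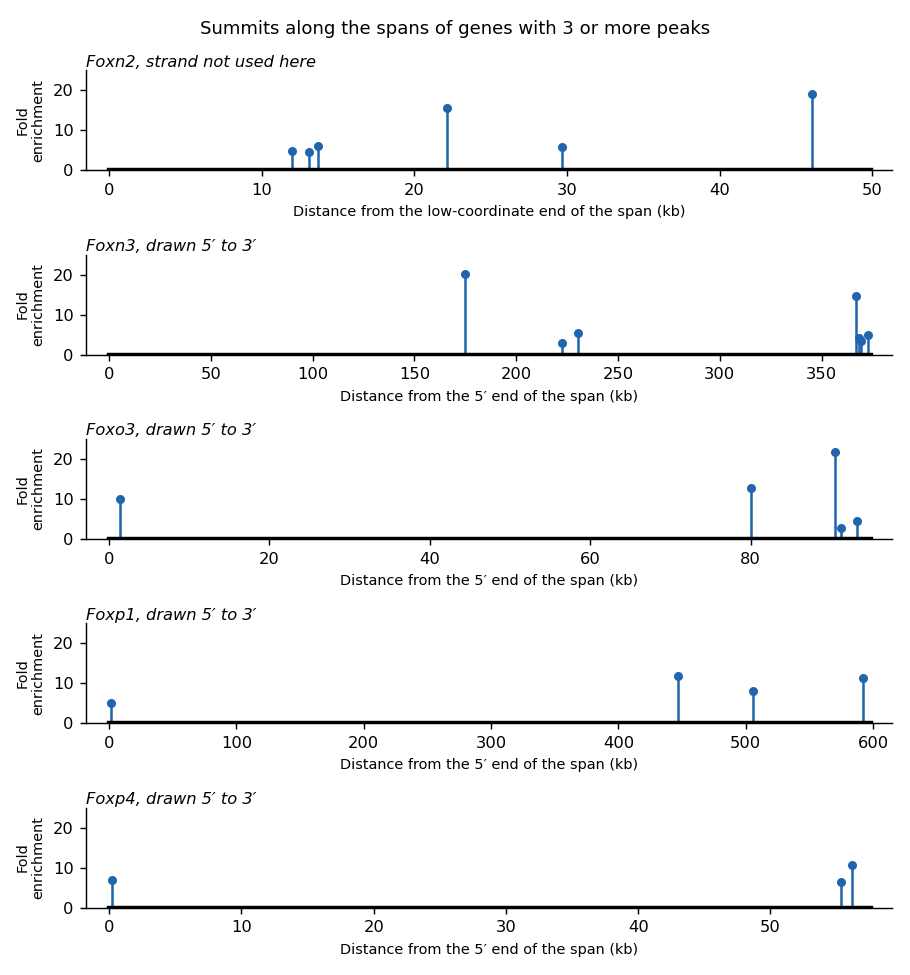
Fold enrichment (y axis) of each summit along the span (x axis, kb) of the 5 genes with 3 or more peaks, with the span as a black line. Foxo3, Foxp1 and Foxp4 have summits close to both ends of the span, and the strongest Foxn3 summit stands 174916 bases from the 5′ end.

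Of the FoxP genes, Foxp1, a repressor with broad roles in development, had 4 peaks over 597405 bases, the longest span of the family, on the minus strand of chromosome 6. Its strongest peaks had nearly the same fold enrichment. One of 11.7 (7.67 to 17.2) at 99075909 to 99076172 rested on 24 fragments over 1.13, 150714 bases from the 3′ end. The other, 11.4 (8.98 to 14.4) at 98929670 to 98930420, rested on 72 fragments over 5.38 and lay 4858 bases from the 3′ end. Equal fold enrichments here came from a 3-fold difference in fragments, so the latter has the narrower interval.

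The remaining Foxp1 peaks had 7.97 (4.83 to 12.5), 11617 bases from a start listed within the gene, and 5.12 (2.70 to 9.02), 1257 bases from the 5′ end. Foxp4 had 10.6 (7.18 to 15.2) from 28 fragments at 47868308 to 47868990, 1331 bases from the 3′ end, and beside it 6.50 (3.52 to 11.2) from 11 fragments. The Foxp4 peak at the 5′ end, at 47924378 to 47924619, had 6.96 (3.45 to 13.0) from only 8 fragments, with the summit 200 bases into the gene. This is the peak that reaches the printed Foxp4 stretch.

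Foxp2, known for its part in the brain circuits of vocalisation, had a single peak of 5.11 (2.23 to 10.8) from 5 fragments at 15437781 to 15437980, 4022 bases from the high-coordinate end of a span of 540629 bases. Foxp3, the factor that defines regulatory T cells, had none, and neither had the T cell marker Cd3e.

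The FoxK genes encode repressors that work with Sin3 complexes and affect autophagy and glucose use. Foxk1 had the widest peak of the family, 2379 bases at chromosome 5, 142456448 to 142458826, with 66 fragments and a fold enrichment of 11.5 (8.96 to 14.6), and a narrow one of 6.96 from 18 fragments. Foxk2 had 1 peak, at chromosome 11, 121306649 to 121307540, with 46 fragments and 11.0 (8.12 to 14.6). The strongest summits of this pair of paralogs lay 4827 and 2810 bases from the high-coordinate end, which for Foxk2 is the 3′ end. Their fold enrichments differ by less than the counting intervals.

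Foxj2, a widely expressed activator, had its strongest peak at the start of the gene, at chromosome 6, 122819862 to 122820616, with 38 fragments over 1.35 and a fold enrichment of 16.6 (11.9 to 22.7). The summit lay 252 bases after the 5′ end, and the peak began before the annotated start and contained all of the window printed above. A second peak of 5.47 rested on 15 fragments. Foxj1, the master factor of motile cilia, and Foxj3 had no peak in their spans, and Foxj3, at 89459 bases, is the longest gene of the family without one.

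Among the factors of mesenchyme and vessels, Foxf1, which responds to Hedgehog signals, had a peak of 11.2 (7.14 to 16.9) from 21 fragments at chromosome 8, 121086610 to 121087180, and one of 4.88 from 5 fragments near the low-coordinate end. Foxc1 had 2 peaks, of 6.81 (3.25 to 13.1) and 6.12 (2.92 to 11.8), each from 7 fragments, the stronger at chromosome 13, 31807297 to 31807756. Foxc2, known for lymphatic valves, had 2 peaks with the same value, 4.26 (1.78 to 9.57). Each came from 4 fragments over a background of 0.175, the lowest of all peaks. Foxs1, the shortest member with a span of 1311 bases and known from perivascular cells, had 4.44 (2.03 to 8.92) from 6 fragments. All peaks of Foxc1, Foxc2, Foxp2 and Foxs1 rested on fewer than 10 fragments.

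**Figure D4:**
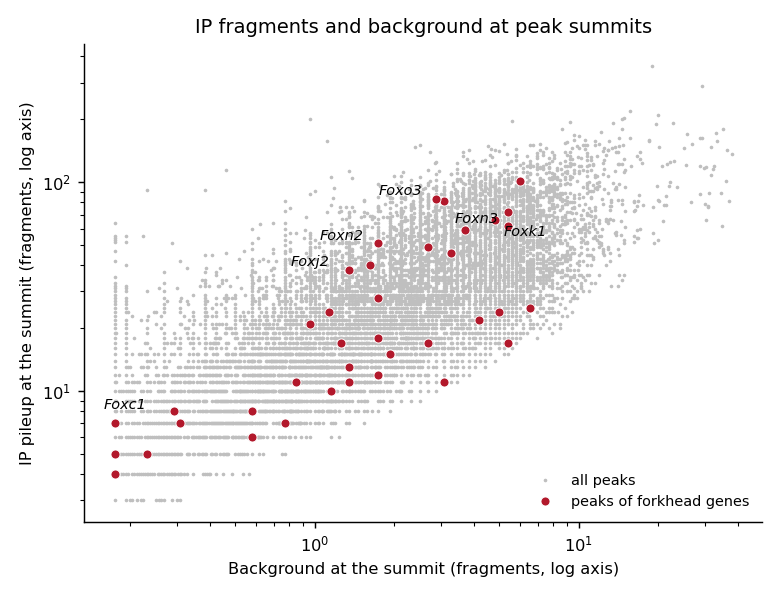
IP pileup (y axis) against background (x axis) at the summits, in fragments on log axes, for all peaks (grey) and the 40 peaks of forkhead genes (red), with the strongest peak of 6 genes named. Foxo3 and Foxn3 lie together at 83 and 81 fragments over backgrounds of 2.88 and 3.08, and Foxc1 at 7 fragments over 0.175.

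The 27 genes without a peak include many that are known from other tissues or stages. Among them are the FoxA genes Foxa1 and Foxa3 of endoderm, Foxb1 and Foxb2, the 4 FoxD genes Foxd1, Foxd2, Foxd3 and Foxd4, Foxe1 of the thyroid and Foxe3 of the lens. The Smad partner Foxh1, Foxi1, Foxi2, Foxi3, the gut mesenchyme gene Foxl1, Foxq1, Foxr1 and Foxr2 also lacked one, as did Foxf2 and Foxm1, the activator of genes for mitosis. Foxj1, Foxj3, Foxn1, Foxn4, Foxo6 and Foxp3, described above, belong here too. Of the 27, 16 span under 5 kb and 4, Foxj3, Foxn1, Foxn4 and Foxo6, span 20 kb or more.

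The spans set which peaks were counted, and 6 peaks within 5 kb outside them were not. Before the 5′ ends of Foxj3 and Foxp1, at 617 and 504 bases, stood peaks of 7.17 (3.78 to 12.6) and 5.49 (2.89 to 9.68), each from 10 fragments and in the span of no gene. The others lay in spans of other genes, beside Foxj1 (in Rnf157, 10.3), Foxj2 (in C3ar1, 10.7), Foxn4 (in Acacb, 10.3) and Foxd2 (in the long non-coding RNA gene Foxd2os, 5.11). Just inside a span, the summits nearest to an end were those of Foxf1 at 87 bases, with 4.88, and Foxp4 at 200 bases, with 6.96. Of the genes without a peak, only Foxj3 had one within 5 kb that lay in the span of no other gene.

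Taken by peak, the 40 forkhead peaks had a median fold enrichment of 6.31 (quartiles 4.85 and 11.5), against 7.26 for the 22994 peaks in protein-coding spans. Their median width was 283.5 bases against 336, and 25% rested on fewer than 10 fragments against 16.3%. The median by peak lay below that of the peaks in protein-coding spans. The median of the strongest peak by gene lay above that of all protein-coding genes with a peak. The 5 genes Foxn3, Foxn2, Foxo3, Foxp1 and Foxp4 held 25 of the 40 peaks. At least 3 peaks were found in these 5 of the 41 genes (12.2%), against 14.5% of all protein-coding genes.

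Of the 40 summits, 25 (62.5%, 47.0 to 75.8) lay within 5 kb of the nearer end of the span, against 55.2% of summits in all protein-coding genes. In genes of at least 20 kb the figures were 16 of 31 (51.6%, 34.8 to 68.0) against 40.1%. Both backgrounds lie inside the intervals, which treat peaks of 1 gene as independent. The strand was known for 24 of the 40 peaks, in 7 genes. Of these, 11 (45.8%) lay within 5 kb of the 3′ end and 6 (25%) within 5 kb of the 5′ end. The shares were 43.3% and 23.1% of the summits in all protein-coding genes with a known strand. In genes of at least 20 kb, which held 22 of the 24, it was 9 (40.9%) against 30.6% at the 3′ end, 4 (18.2%) against 11.5% at the 5′ end and 9 (40.9%) against 57.9% at neither. Of the 9 genes of 20 kb or more with a peak, 7 had their strongest summit within 5 kb of an end, and Foxn3 and Foxp1 did not. The same count over all protein-coding genes was not made, so no preference is drawn from these 9.

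Other families of DNA-binding factors were set beside the forkhead genes with the same counts. Of 39 Hox genes 22 had a peak (56.4%, 41.0 to 70.7), of 19 Sox genes 10 (52.6%, 31.7 to 72.7) and of 17 Klf genes 12 (70.6%, 46.9 to 86.7). Each interval overlaps that of the forkhead genes, for Klf genes only from 46.9 to 49.5. Such overlap does not show that the shares are alike. The median of the highest fold enrichment was 11.4 in both Hox and Sox genes and 13.3 in Klf genes, beside 11.4 in forkhead genes. At least 3 peaks were held by 8 of the 17 Klf genes (47.1%), 9 of 39 Hox genes (23.1%), 3 of 19 Sox genes (15.8%) and 5 of 41 forkhead genes (12.2%). These differences were not tested. A summit in overlapping spans counted for each gene, so some Hox peaks may be counted more than once. Hoxd3 and Hoxd4 had the same highest fold enrichment (13.92), as did Hoxa3 and Hoxa6 (11.0). The median span was 11412 bases in Klf genes, 3737 in Hox genes, 4794 in Sox genes and 5591 in forkhead genes. Hox and Sox genes thus had shorter median spans and higher shares than forkhead genes.

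**Figure D5:**
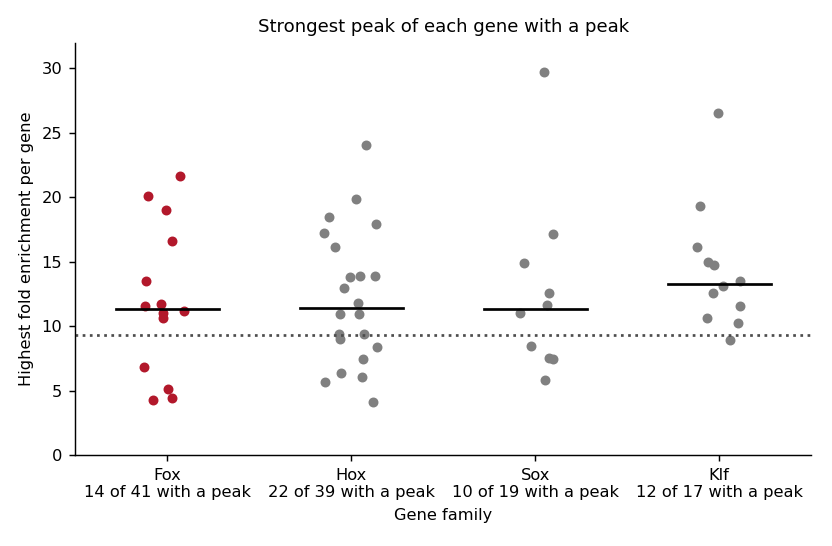
Highest fold enrichment per gene (y axis) for the genes with a peak in the Fox, Hox, Sox and Klf families (x axis), with each family's median as a black bar and the median of all protein-coding genes with a peak, 9.36, as a dotted line. The points of the 14 forkhead genes run from 4.26 to 21.6, within the range of the Hox genes (4.15 to 24.1). The lowest points of the Sox and Klf genes are higher, at 5.87 and 8.91.

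The 3 forkhead genes that the rule leaves out had peaks as well. Foxl2 had 1 peak of 32.7 (26.1 to 40.5), Foxo1 had 3, the strongest with 16.2 (11.6 to 21.9), and Foxa2 had 2, the strongest with 15.2 (9.88 to 22.5).

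Genes known to act with forkhead factors were read from lists of textbook names, against the 44.9% of all protein-coding genes with a peak. Of 15 genes that control FoxO proteins, through PI3K and Akt or otherwise, 12 had a peak (80.0%, 54.8 to 93.0). Their median highest fold enrichment was 7.46. The highest were Pik3r1, the regulatory subunit of PI3K, at 24.7 (21.0 to 28.9) and the 14-3-3 gene Ywhaz, whose product holds phosphorylated FoxO, at 14.1 (11.4 to 17.3). Akt1 had 6.78 (3.67 to 11.7), whereas Akt2 and Sgk1 had no peak.

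Of 16 FoxO target genes, 12 had a peak (75%, 50.5 to 89.8), with a median of 13.3, led by the insulin receptor substrate gene Irs2 at 19.96 (13.8 to 27.9) and Klf2 at 19.3 (15.8 to 23.5). The target genes Ccng2, Sesn3, Sod2 and Trim63 had none. Of 19 partners and corepressors, 16 had a peak (84.2%, 62.4 to 94.5), with a median of 8.54. The corepressor gene Tle1 had 22.1 (16.7 to 28.6) and Sin3a, the scaffold of a deacetylase complex, 11.7 (8.73 to 15.4), and Hdac1, Hdac2 and Mta1 had none. In these 3 lists, as in the Hedgehog list that follows, the background of 44.9% lay below the interval, and in the list of cilium genes it lay above it. The lists were not matched on span or expression, and nothing particular to forkhead control is drawn from them.

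Of 7 Hedgehog genes, which act beside FoxF and FoxL factors, 6 had a peak (85.7%, 48.7 to 97.4), with Gli2 at 14.9 (11.1 to 19.4), Ptch1 at 14.6 (9.38 to 21.8) and only Shh without one. Of 9 targets of Foxm1, 3 had a peak (33.3%, 12.1 to 64.6). They are Cenpf at 14.6 (8.86 to 22.9), Aurkb at 10.2 (5.67 to 17.3) and Birc5, while Ccnb1, Ccnb2, Plk1, Cdc25b, Cdc20 and Top2a had none, like Foxm1 itself. Of 9 genes of cilium formation listed beside Foxj1, only Rfx3 had a peak (11.1%, 1.99 to 43.5), of 4.69 (2.47 to 8.27), and Foxj1 had none. Tekt1, Dnah5, Dnah9, Dnaic1, Rsph1, Rfx2, Mcidas and Ccno were without one.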

How the data were processed

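Per the labels' protocols, TRIzol was used for extraction and a kit that keeps strand for the libraries. The submitters' processing notes name mm10, HISAT2 (2.2.1) and MACS3 (3.0.0a7), without options or the use of the input. In the deposited list the fold enrichment is a ratio, the p-value and q-value are −log10 values, and the deposited score (−log10 q times 10) was not used further. The input sample's files were not analysed here.

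Pileup and background at the summits were derived from fold enrichment and Poisson p-value. Pileups were whole, to within 0.05 of the step between whole values, for 99.97% of all peaks and all 40 forkhead peaks, and the solver was tested on simulated data made with its own formula. Poisson intervals are exact and take the background as known, and shares have Wilson intervals, both at 95%. Poisson intervals cover only the counting error of fragments and take these as independent, which PCR copies are not. Wilson intervals cover only the error of counting genes or summits.

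RefSeq spans hold no exons, and strand came from the promoter table where it lists the gene. Peaks carry no strand, so antisense transcripts were not told apart. A summit in overlapping spans counted for each gene. Coordinates count from 1. Members and lists were chosen with earlier results of these data known.

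Members are named, except that some genes these rules name are left out of the text. Position, pileup and interval are given for the strongest peak of the 12 genes with the highest fold enrichment, and every peak is given for genes with 3 or more. Of the gene lists, the 2 highest genes and those without a peak are named. Akt1, Sin3a, Rfx3, Birc5 and the markers named were added after their values were seen. A motif search in all peaks was planned for the case that a genome was given, and promoter windows were read in its place. Alternatives changed the threshold on peaks, their assignment to genes, the value per gene and the pseudocount of 1. Python 3.11.15 was used with numpy (2.4.6), pandas (2.3.3) and scipy (1.17.1), and matplotlib (3.10.9) for figures.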

Additional observations from a re-analysis of the deposited data

How the results depend on the processing

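With no pseudocount, the median over genes of the highest fold enrichment was 24.6 in place of 11.4, and 18.4 in place of 9.36 over all protein-coding genes, and 12 of the 14 genes left their interval, by construction, since small backgrounds then weigh more. The number of genes with a peak was 11 (26.8%) with −log10 q of at least 5, without Foxc2, Foxp2 and Foxs1, against 41.3% of all protein-coding genes. With at least 10 fragments the number was 10 (24.4%), without Foxc1 as well, against 39.3%. The number stayed at 14 under a fold enrichment of at least 4, summits in exactly 1 gene, any overlap and 50% overlap. The number of peaks ranged from 30 to 40 and the share of summits within 5 kb of an end from 56.7% to 64.1% over these 6 alternatives. The median over each gene's peaks was 7.51, against 7.43 over all protein-coding genes. Depth limits the 10 forkhead peaks with fewer than 10 fragments. No paired analysis was possible because there is 1 sample per group and the values come from no test. The share of motifs in whole peaks was not run, since no genome was used here.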

Other observations

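The long non-coding RNA gene Foxd2os, beside Foxd2, had a peak of 5.11 (2.23 to 10.8) from 5 fragments, while Foxd2 had none.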
